A study of Mus musculus with 5 samples.

Results

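The matrix metalloproteinases (MMPs) and their tissue inhibitors (TIMPs) were followed in mouse aorta at 10 genes: Mmp2, Mmp3, Mmp9, Mmp12, Mmp14, Mmp23, Timp1, Timp2, Timp3 and Timp4. The genes were picked by name, and every probe set that the platform annotation gives to exactly 1 of them was taken. They had 23 probe sets, of 22626 on the array that were not controls. The annotation named 12393 genes in all.

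MMPs are zinc-dependent proteases, most of them secreted as inactive proenzymes, that cut collagens, elastin, proteoglycans and other matrix proteins. TIMPs are small secreted proteins that sit in the active site of an MMP and block it. In the aortic wall, whose load is carried by elastic lamellae and collagen, this balance is known for its part in remodelling, aneurysm and atherosclerosis.

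Arrays came from male mice of the strain BKS.Cg-m +/+ Lepr db/J, 16 to 20 weeks old and fed regular chow. Mice homozygous for db, a loss of the leptin receptor form that signals, become obese and diabetic, and they had 3 arrays (replicates 1, 2 and 3). Heterozygous db/+ mice had 2 arrays (replicates 2 and 3). Replicate 1 of that genotype was not analysed here. In this strain's notation the misty coat allele m and db lie on opposite copies of a chromosome, so db/+ mice carry m as well. The mutation affects every tissue, so the genotypes also differ in body weight and blood glucose, as background. RNA of 6 aortas was pooled for each array, after removal of adventitia and fat around the vessel, per the series' design text. The p-values therefore measure the spread between pools.

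Values are MAS5 signals, the linear intensity that Affymetrix software computes per probe set. A probe set's brightness depends on its probes, so signals are compared between genotypes and never between genes. A log2 change is db/db minus db/+ on log2(signal + 16), with its standard error (SE), and it understates the change of dim probe sets. Probe sets were tested where their mean log2 value was above the 40th percentile, at a signal of about 39.5, and p-values were adjusted over all 13575 probe sets tested. The threshold was an adjusted p of 0.05.

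Pairs of arrays had a Pearson r of 0.952 to 0.977 over the tested probe sets, and the pairs with db/db replicate 1 lay at 0.952 to 0.965. The contractile actin gene Acta2, a smooth muscle marker named as a check of the tissue, was read on every array. Its brighter probe set, whose probes may match related transcripts too, had signals from 7626 to 9147 in db/db and from 6379 to 8534 in db/+. The dimmer one had 71.8 to 104.5 in db/db and 66.3 to 95.2 in db/+. Fat was also read on every array, with Adipoq, the adipocyte hormone adiponectin, at 1394 to 2062 in db/db and 2122 to 2791 in db/+. The summed signal of 10 cardiac muscle markers ran from 685 to 4170 in db/db and from 1249 to 1617 in db/+, and the highest sum was that of db/db replicate 2.

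Timp4 and Mmp3 were the members with lower signals on all db/db arrays than on all db/+ arrays, and the first of 2 Timp4 probe sets had less than 0.5 of the db/+ signal in db/db. Neither passed the test across all probe sets. The other 7 genes tested had overlapping arrays, and Mmp12 was too dim to test. With limma, 0 of the 20 member probe sets tested passed the adjusted threshold, where 0.081% of all probe sets did. Before adjustment 3 of the 20 had p under 0.05 with a negative change and 0 with a positive one, where 4.15% and 3.98% of all probe sets did. Arrays did not overlap at 3 member probe sets, all lower in db/db (15% of 20, against 11.9% of all probe sets), and at 0 on the higher side (13.1% of all). That share is close to the background, and 2 of the 3 probe sets read the same gene. The median log2 change was 0.037 over the 20 probe sets and 0.017 over all those tested.

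**Figure D1:**
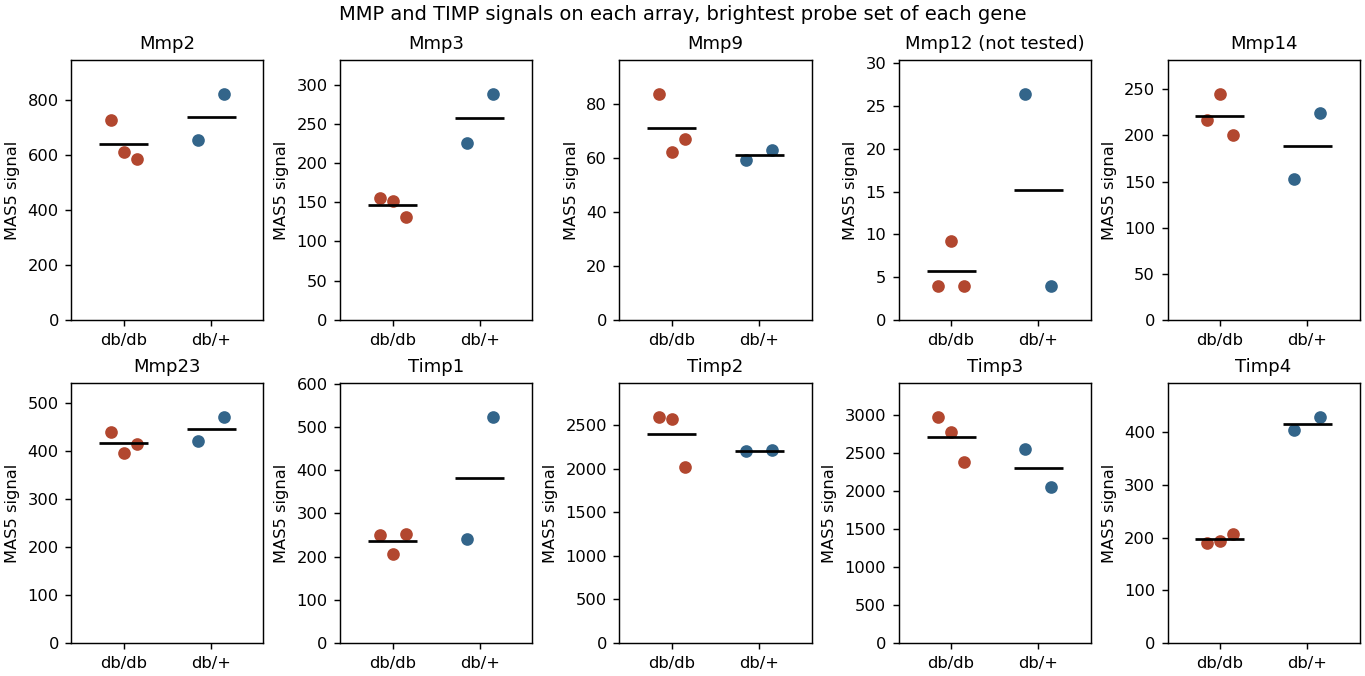
MAS5 signal (linear, from 0, own scale in each panel) of the brightest probe set of each gene, 1 point per array, with db/db in red (3 arrays) and db/+ in blue (2 arrays); black lines are group means. Timp4 and Mmp3 are the panels in which the genotypes are apart, the Timp1 mean of db/+ is set by 1 array at 523, and Mmp12 lies at 26.4 or below throughout.

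Timp4 encodes the TIMP with the most restricted expression, known from heart, fat and vessel. Its brighter probe set had signals of 190, 194 and 206 in the 3 db/db pools, against 404 and 429 in the 2 db/+ pools. The db/db pools lay within a narrow band, and the dimmer db/+ pool was well above all of them. The means were 197 ± 8.5 in db/db and 416 ± 17.7 in db/+ (SD, n = 3 and 2), a ratio of 0.473. The log2 change was −1.02 (SE 0.15, 95% interval −1.37 to −0.68), with a limma adjusted p = 0.059, just short of the threshold. The adjusted p passed in 4 of 14 alternative settings (from 0.023 with a pseudocount of 64 to 0.039 with a filter at the 60th percentile). It was 0.39 and 0.54 when db/+ replicate 2 or 3 was left out, which leaves 1 db/+ array whose spread is assumed to equal that of the others. The size of the difference moved little, from −1.08 to −0.88 over the 14 settings.

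The second Timp4 probe set gave the same direction with a smaller difference. It read 172, 134 and 156 in db/db, against 207 and 284 in db/+. The genotypes did not overlap, but the 2 db/+ pools were further apart than at the first probe set. Its log2 change was −0.61 (SE 0.19, 95% interval −1.04 to −0.18, limma adjusted p = 0.41), and it was −0.40 without db/+ replicate 3. Fewer cells of a type and less RNA per cell cannot be told apart in these pooled tissues, here or at any other gene.

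Mmp3 encodes stromelysin-1, a protease of proteoglycans, laminin and fibronectin that also activates other MMP proenzymes. It was read by 1 probe set, at 155, 152 and 132 in db/db, against 226 and 288 in db/+. The highest db/db pool was below the lower db/+ pool. Mean signals were 146 ± 12.7 in db/db and 257 ± 43.9 in db/+ (SD), a ratio of 0.569. The log2 change was −0.74 (SE 0.17, 95% interval −1.14 to −0.35) with a limma adjusted p = 0.23. It stayed between −0.91 and −0.58 over 14 settings and passed in none of them, with adjusted p from 0.14 to 0.998.

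The stretch before the start of the genes is shown for the pair with lower signals in db/db, and for Timp2, the member with the most probe sets, whose arrays overlapped. RefSeq promoter entries of assembly GRCm38.p6 matched 8 of the 10 members by symbol. The bases printed are the 250 upstream of the annotated start, 5′ to 3′ on the gene's strand. They lie at chr9:7445572-7445821 (plus strand) for Mmp3, chr6:115252206-115252455 (minus strand) for Timp4 and chr11:118355412-118355661 (minus strand) for Timp2. Capitals mark matches on either strand to the letters TATAAA of a TATA box, to the letters TGAGTCA of an AP-1 element, to the letters GGGCGG of a GC box or to a CCAAT box, spelled as its name.
Mmp3: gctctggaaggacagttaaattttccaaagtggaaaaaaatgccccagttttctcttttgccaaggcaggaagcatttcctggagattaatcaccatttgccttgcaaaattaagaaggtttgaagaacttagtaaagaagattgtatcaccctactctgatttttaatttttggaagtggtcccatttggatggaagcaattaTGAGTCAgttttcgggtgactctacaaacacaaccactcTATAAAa
Timp4: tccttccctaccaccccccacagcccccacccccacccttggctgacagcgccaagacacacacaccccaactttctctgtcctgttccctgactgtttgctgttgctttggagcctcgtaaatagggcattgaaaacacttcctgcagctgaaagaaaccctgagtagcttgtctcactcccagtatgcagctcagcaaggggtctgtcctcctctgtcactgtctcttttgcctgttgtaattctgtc
Timp2: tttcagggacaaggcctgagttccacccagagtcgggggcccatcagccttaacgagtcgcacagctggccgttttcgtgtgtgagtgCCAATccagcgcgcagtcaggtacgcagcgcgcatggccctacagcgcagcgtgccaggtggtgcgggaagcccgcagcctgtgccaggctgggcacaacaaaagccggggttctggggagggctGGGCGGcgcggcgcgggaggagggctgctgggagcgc

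Mmp3 held an AP-1 element at −46 to −40 and a TATA box at −7 to −2 from the annotated start. The same window held an AP-1 element in 4.46% and a TATA box in 12.4% of 32851 RefSeq promoter entries. The Timp4 window held none of the 4 motifs. Timp2 held a CCAAT box at −162 to −158 and a GC box at −37 to −32, motifs found in 33.8% and 32.7% of entries. The GC content was 37.6% for Mmp3, 53.6% for Timp4 and 68.0% for Timp2, against a median of 52.4% over all entries. Among the other members, the second annotated start of Mmp12 had an AP-1 element at −44 to −38. Mmp14 had 2 GC boxes and 2 CCAAT boxes, and the second CCAAT match shared its last base with the first GC box. Timp1 had a CCAAT box at −190 to −186 and a GC box at −8 to −3. Timp3 had a GC box at −15 to −10. A match of letters is a description of the sequence and says nothing of binding in these aortas.

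Timp1 encodes the inducible TIMP, known to rise in inflammation and fibrosis. Its probe set had 251, 207 and 252 in db/db, against 241 and 523 in db/+. The genotypes overlapped: db/+ replicate 2 read like the db/db pools, and db/+ replicate 3 alone was high. The log2 change was −0.56 (SE 0.29, 95% interval −1.22 to 0.087, limma adjusted p = 0.67). It was −0.029 without db/+ replicate 3 and −1.10 without db/+ replicate 2 (limma adjusted p = 0.998 and 0.42), so a single pool decides this value.

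Timp3 encodes the TIMP that binds to the extracellular matrix and also inhibits ADAM proteases. Its brightest probe set read 2972, 2772 and 2384 in db/db, against 2548 and 2055 in db/+. At all 4 probe sets db/+ replicate 3 was the lowest of the 5 arrays, and at 3 of the 4 db/+ replicate 2 was the highest. The spread between the 2 db/+ pools therefore exceeded the genotype difference at each of those 3 probe sets. The log2 changes of the 4 probe sets ran from 0.042 to 0.24, with limma adjusted p from 0.81 to 0.98. Without db/+ replicate 3 they were negative at 3 of the 4, from −0.33 to −0.15.

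The array that was high for Timp1 was thus low for Timp3. In db/+ replicate 3 the Timp1 value lay 0.87 above the mean of the 5 arrays on the log2 scale, and the Timp3 values lay 0.30 to 0.59 below theirs. Timp4 and Mmp3 were above their means on both db/+ arrays and below them on all 3 db/db arrays. They too were highest on db/+ replicate 3. Mmp3 stood at 0.61 there, against 0.28 on db/+ replicate 2. The second Timp4 probe set stood at 0.58 against 0.15, and the first at 0.66 against 0.57.

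**Figure D2:**
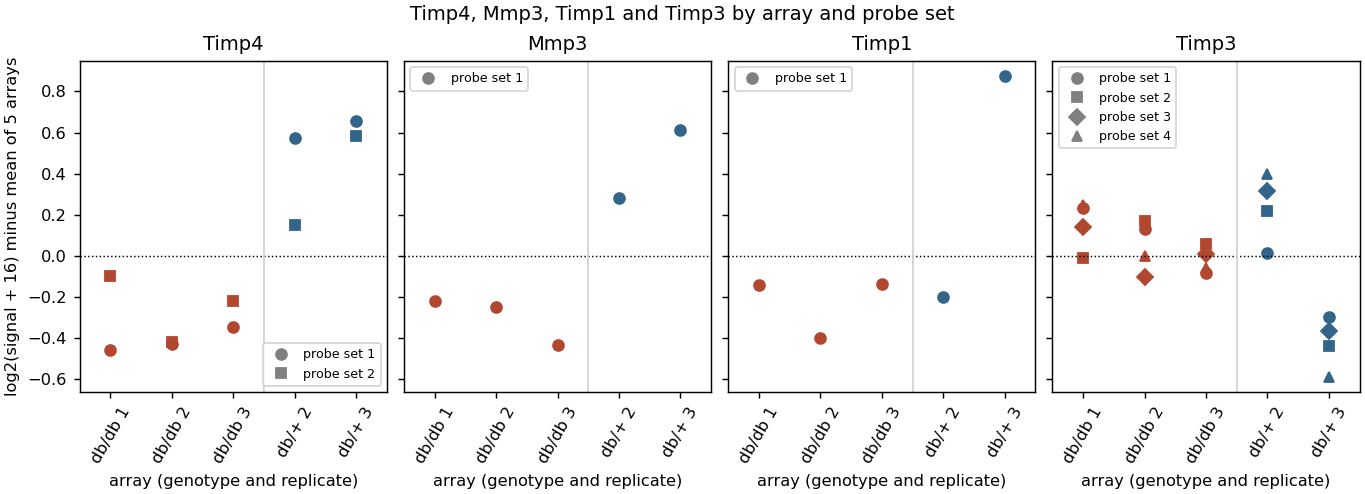
Deviation of each array from the mean of 5 arrays, on log2(signal + 16), for the tested probe sets of Timp4, Mmp3, Timp1 and Timp3 (1 symbol shape per probe set; db/db arrays in red, db/+ arrays in blue). Timp4 and Mmp3 separate by genotype, Timp1 stands at 0.87 in db/+ replicate 3 alone, and all 4 Timp3 probe sets are lowest on that array.

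Mmp2, Mmp14 and Timp2 are described together, because the membrane protease MMP14 is known to bind TIMP2 at the cell surface and, through it, to capture and activate pro-MMP2. The genotypes overlapped at every tested probe set of the 3 genes, and none passed. Timp2 was read by 5 tested probe sets. The brightest, whose probes may match related transcripts too, had 2591, 2571 and 2021 in db/db, against 2198 and 2210 in db/+. The db/db pools lay on both sides of the db/+ pools. Log2 changes of the 5 ran from −0.059 to 0.12, limma adjusted p from 0.91 to 0.98. A 6th Timp2 probe set had signals between 2.0 and 4.7 on every array and was not tested.

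Mmp2, gelatinase A, degrades denatured collagen and basement membrane collagen. Its brighter probe set read 729, 612 and 585 in db/db, against 656 and 823 in db/+, with overlap. The log2 changes of its 2 probe sets were −0.20 (SE 0.18, 95% interval −0.60 to 0.21) and −0.14 (95% interval −0.52 to 0.24), with limma adjusted p = 0.85 and 0.89. Both intervals exclude a halving and a doubling, which are log2 changes of −1 and 1. The brighter Mmp14 probe set read 217, 245 and 200 in db/db, against 152 and 225 in db/+, and db/+ replicate 2 was the lowest. Its log2 change was 0.23 (95% interval −0.22 to 0.68, limma adjusted p = 0.84), and it turned to −0.029 without db/+ replicate 2. The dimmer Mmp14 probe set had a log2 change of 0.17 (limma adjusted p = 0.90).

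Mmp9, gelatinase B, is made by neutrophils, macrophages and activated vessel cells. Its brighter probe set read 83.9, 62.3 and 67.1 in db/db, against 59.4 and 63.0 in db/+. The high value came from db/db replicate 1, and the others were nearly level. The log2 change was 0.17 (SE 0.17, limma adjusted p = 0.87). The second Mmp9 probe set was under the filter, with 11.5 to 28.4 in db/db and 14.3 to 39.6 in db/+. Of 9 neutrophil markers with a probe set, 6 were under the filter too, and the 3 tested had a median log2 change of −0.0026.

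Mmp12 encodes macrophage elastase, which degrades elastin. Its probe set read 3.9, 9.2 and 3.9 in db/db, against 26.4 and 4.0 in db/+. Only db/+ replicate 2 stood above the rest, and all values were under the filter's level. Such signals do not show whether Mmp12 RNA differed between genotypes.

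Mmp23 encodes a membrane-tethered MMP that lacks the usual hemopexin domain. Its brighter probe set read 439, 395 and 415 in db/db, against 422 and 471 in db/+, and the ranges overlapped. Both probe sets had a log2 change of −0.096, with 95% intervals of −0.45 to 0.26 and −0.52 to 0.32 (limma adjusted p = 0.92 and 0.93).

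**Figure D3:**
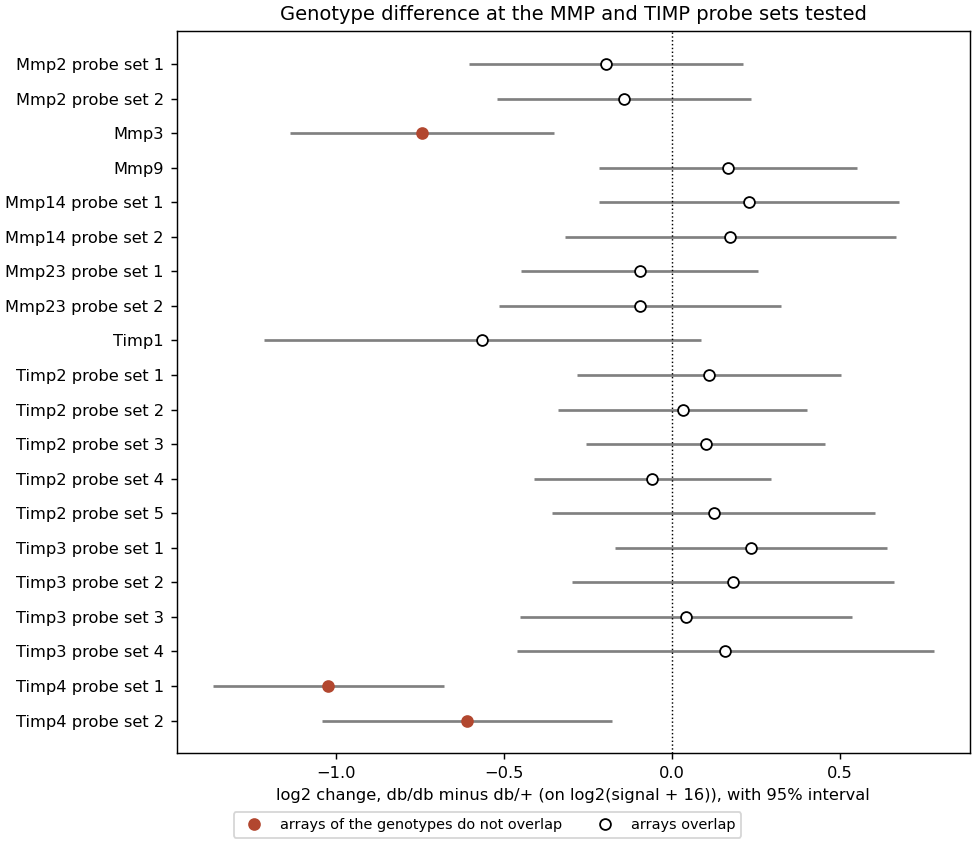
Log2 change (db/db minus db/+, on log2(signal + 16)) of the 20 tested probe sets, with limma's 95% interval as a grey line; filled red points mark probe sets whose arrays do not overlap between genotypes, open points those that overlap. The 3 filled points are the 2 of Timp4 and that of Mmp3, and every other interval includes 0.

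The array also read 12 of 17 further MMP genes. Of these 9 were under the filter, with signals of 1.2 to 59.7, and 3 were tested. None of the 3 passed, and 0 had an unadjusted p under 0.05 by limma. All 3 encode membrane-type MMPs with positive log2 changes. Mmp24 had 58.2, 94.8 and 82.1 in db/db, against 49.9 and 57.4 in db/+ (log2 change 0.42, limma adjusted p = 0.65). Mmp17 had 360, 305 and 269 in db/db, against 258 and 261 in db/+ (0.24, adjusted p = 0.80). At both genes the db/db pools were all above the db/+ pools, as at 13.7% of all named genes tested. Mmp16 overlapped and had 0.061 (adjusted p = 0.96).

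Of 26 activators and further regulators of MMPs, 24 had a probe set and 17 were tested. With limma 0 passed, while before adjustment 5 had p under 0.05 with a negative change and 0 with a positive one. Over all 8263 named genes tested, each by its brightest probe set, those shares were 4.27% and 4.36%, and 0.109% passed the adjusted threshold. The lowest p-values belonged to the mast cell tryptase Tpsb2, to Thbs1, a matricellular protein that binds MMPs, and to the mast cell protease Mcpt4. Tpsb2 had 51.9, 28.7 and 50 in db/db, against 129 and 122 in db/+ (log2 change −1.27, limma adjusted p = 0.079). Thbs1 had 69.7, 54.2 and 91.9 in db/db, against 246 and 165 in db/+ (−1.33, adjusted p = 0.096). Mcpt4 had 34.9, 31.3 and 71.7 in db/db, against 125 and 171 in db/+ (−1.45, adjusted p = 0.13). Cma1, a further mast cell protease, was named after its values were seen and had −0.80 (adjusted p = 0.19). Lcn2, also named afterwards, was the remaining gene of the 5 and had −1.39 (adjusted p = 0.35). It read 31.3, 29 and 20.7 in db/db, all under the filter's level, against 47.3 and 181 in db/+. Lcn2 was therefore tested only through its db/+ signals, of which db/+ replicate 3 alone was high. The genotypes did not overlap at any of the 5, which a choice by small p makes likely. Of the 17 tested, 6 had arrays apart with lower values in db/db and 1 with higher values. Over all named genes tested those shares were 12% and 13.7%. The membrane-anchored MMP inhibitor gene Reck, also named afterwards, had 482, 466 and 477 in db/db, against 552 and 481 in db/+, a log2 change of −0.11 (adjusted p = 0.90).

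Matrix substrates of MMPs were tested at 20 genes of 21 listed. By limma 0 passed, while 3 with a negative change and 0 with a positive one had p under 0.05 before adjustment, and the median log2 change was 0.025. The 3 were the proteoglycan genes Acan (aggrecan) and Vcan (versican) and the basement membrane gene Nid1. Acan had 103, 112 and 99.4 in db/db, against 167 and 237 in db/+ (log2 change −0.83, limma adjusted p = 0.20). Vcan had 467, 398 and 411 in db/db, against 618 and 559 in db/+ (−0.46, adjusted p = 0.48). Nid1 had 369, 393 and 381 in db/db, against 543 and 486 in db/+ (−0.42, adjusted p = 0.53). The genotypes were apart at all 3 genes, which a choice by small p makes likely. Of the 20 tested, 6 had arrays apart with lower values in db/db and 2 with higher values. Over all named genes tested those shares were 12% and 13.7%. The dimmer Nid1 probe set had overlapping arrays and a log2 change of −0.29 (limma adjusted p = 0.79).

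Markers of several cell types had the same direction as Timp4 and Mmp3. Of 18 macrophage markers, 15 were tested, all had negative log2 changes, and at 14 the arrays did not overlap, while 0 passed. Over all named genes tested, 12% had arrays apart with lower values in db/db. The summed signal of the 18 markers was 3248 to 3850 in db/db and 5524 to 6938 in db/+, and none was at 0 on all arrays. Adgre1 was the tested marker that overlapped, with −0.32. Under the filter, Msr1 and Cx3cr1 had higher means in db/db by their brightest probe sets (42.3 against 31.8 and 23.7 against 19.65). Itgam, also under it, had a lower mean (15.9 against 29.5). A dimmer C1qb probe set overlapped, with −0.017, and the dimmest was apart, with −0.88. Lgals3, Fcer1g and Lyz2 had the smallest p, with log2 changes of −1.15, −1.63 and −1.09 (limma adjusted p from 0.052 to 0.10). Of 9 endothelial markers, 8 had negative log2 changes, at 7 the arrays did not overlap, and the sum was 1317 to 1670 in db/db and 2059 to 2232 in db/+. Pecam1, Vwf and Esam had the smallest p, with −0.84, −0.57 and −0.48, and 0 of the 9 passed. Cdh5 and Kdr were nearly level, at −0.057 and 0.039.

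Of 10 mesothelial markers 7 had a probe set, 4 were tested and 3 were negative, and the summed signal of the 7 was 483 to 596 in db/db and 960 to 1100 in db/+. Of these Prg4, lubricin, passed (log2 change −1.38, limma adjusted p = 0.046), but it did so in only 7 of 14 alternatives. Its adjusted p was 0.174 with no filter, and 0.358 and 0.543 without db/+ replicate 2 or 3. The other mesothelial genes with the smallest p, Slpi and Upk3b, had −1.31 and −0.37. Prg4 read 74.6, 104 and 84.4 in db/db, against 249 and 254 in db/+. Slpi read 155, 140 and 111 in db/db, against 375 and 339 in db/+. Prg4 and Slpi made up most of the gap between the summed signals. Krt8, the remaining marker tested, had 0.0040. Wt1, under the filter, had means of 16.6 in db/db and 16.4 in db/+. The part of these cell types in the Timp4 and Mmp3 differences was not tested.

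Fat and heart are also known to express Timp4. The summed signal of 8 adipocyte markers was 11309 to 20732 in db/db, a range that enclosed the 15574 to 15783 of db/+. Lep, leptin, was the 1 marker that passed (log2 change −2.96, limma adjusted p = 0.0073). It did not pass with no filter (0.106), a pseudocount of 1 (0.0541) or without db/+ replicate 2 or 3. Those last fits, with 1 db/+ array left, gave log2 changes of −2.87 and −3.05. Lep read 23.4, 12 and 35 in db/db, all under the filter's level, against 302 and 264 in db/+. Lep was therefore tested only through its db/+ signals, and it was not tested with the filter at the 60th percentile. Adipoq, like Lep, was lower on all db/db arrays than on all db/+ arrays (log2 change −0.44, adjusted p = 0.67), and Retn, at 0.49 (0.60), was higher on all of them. No cardiac marker had arrays apart. The log2 changes of Nppb, Myl3 and Myl2 were 0.67, −1.19 and −0.81 (limma adjusted p from 0.75 to 0.81).

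The part of fat and heart in the Timp4 values was not tested.

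All 9 smooth muscle markers had positive log2 changes, with a median of 0.19 and 0 passing. Synpo2, Lmod1 and Smtn had 0.50, 0.36 and 0.32. Of 10 fibroblast and adventitia markers 6 were positive and 4 negative, with 0 passing. Dpep1, Pdgfra and Pi16 had −0.61, −0.30 and 0.21. The neutrophil markers tested were Ltf, Mpo and Ngp, at 0.17, −0.079 and −0.0026.

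**Figure D4:**
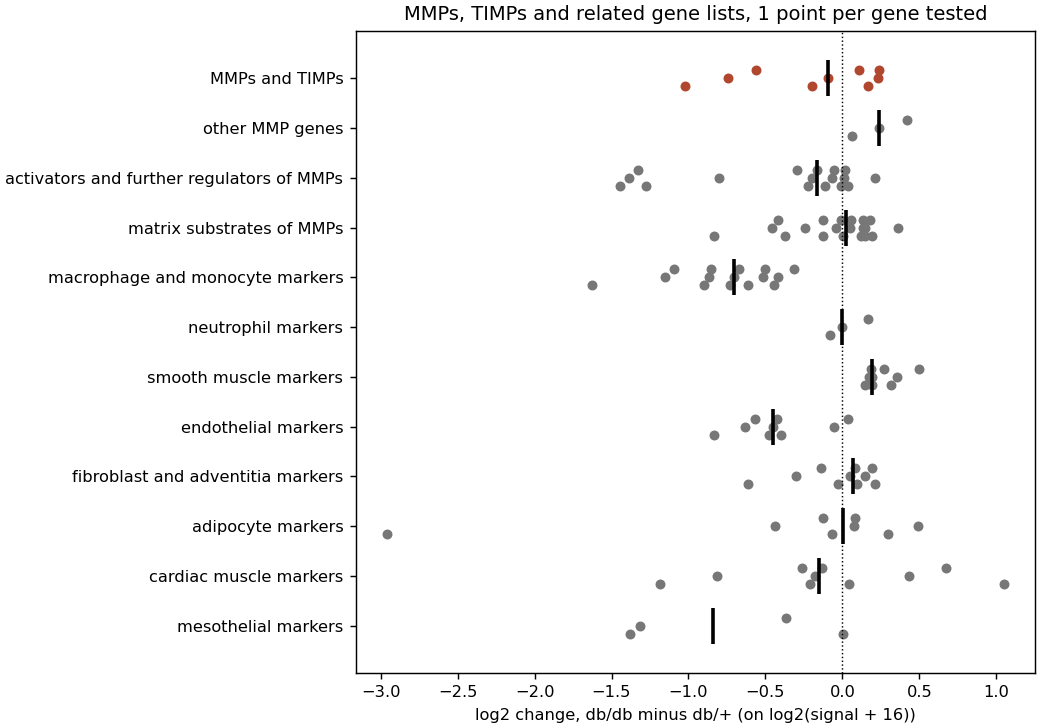
Log2 change (db/db minus db/+, on log2(signal + 16)) of every tested gene of each list, 1 point per gene by its brightest probe set, with the list's median as a black bar; the vertical spread within a row carries no value. MMPs and TIMPs (red) have a median of −0.096, macrophage markers one of −0.71, endothelial markers one of −0.45 and smooth muscle markers one of 0.19.

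The 5 named genes with the profile nearest to the brighter Timp4 probe set were taken from all tested probe sets, by the root mean square distance of centred log2 values over the 5 arrays. They were the ubiquitin ligase gene Wwp1 (distance 0.0804), the glucocorticoid-induced leucine zipper gene Tsc22d3 (0.0914), the macrophage complement receptor gene Vsig4 (0.0925), the RNA-binding protein gene Rbm14 (0.0929) and the tetraspanin gene Tspan6 (0.099). The probes of the Rbm14 probe set may match related transcripts. Each shared the step between genotypes, which the search selects for. Flatness within the genotypes varied, and Vsig4 had 63.5, 58.5 and 58.8 in db/db, against 128 and 160 in db/+. Tsc22d3, for example, had 157, 181 and 199 in db/db, against 394 and 364 in db/+. With 5 arrays and 13575 profiles to search, near matches are easily found, and no p is given.

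**Figure D5:**
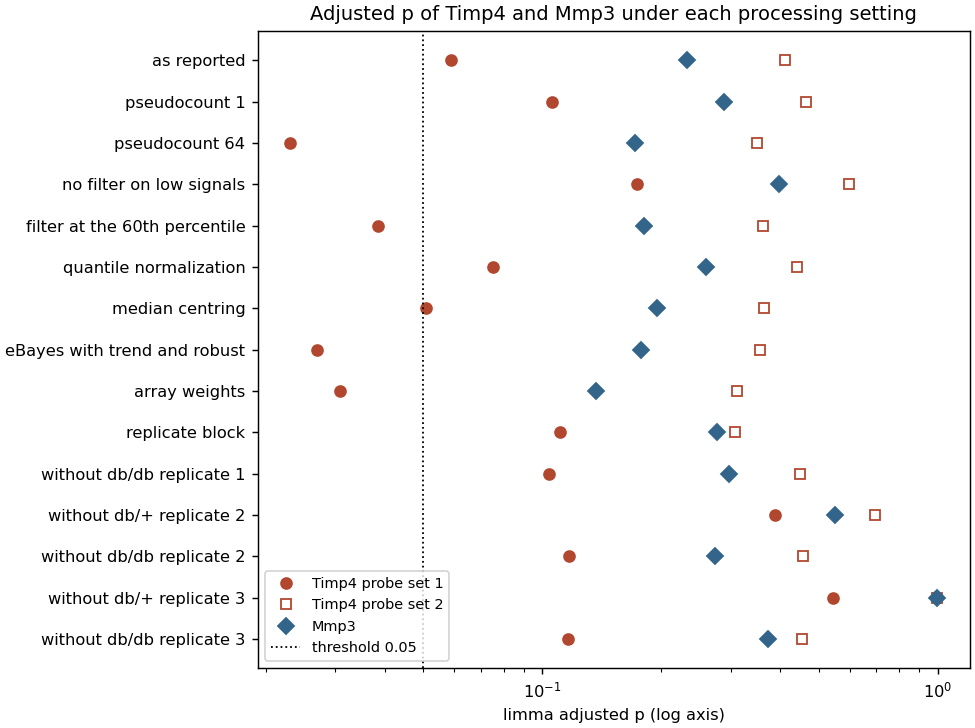
Limma adjusted p (log axis) of both Timp4 probe sets and of Mmp3 under the reported setting and 14 alternatives, with the 0.05 threshold dotted. The brighter Timp4 probe set lies on either side of the threshold, from 0.023 to 0.54, while the second Timp4 probe set and Mmp3 stay to its right in all of them.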

How the data were processed

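Aorta RNA was hybridised to 3 db/db and 2 db/+ arrays, each a pool of 6 aortas. The deposited values are linear signal intensities; the submitters' processing notes name MAS5 without a version. The 2% trimmed mean was 150.05 on each array, so no further normalization was applied, and the number of arrays limits precision. Of 22690 probe sets, 64 controls were left out. Of the rest 20380 had 1 symbol, 691 several and 1555 none in the platform annotation.

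Values were transformed to log2(signal + 16), filtered at the 40th percentile of mean log2 values, then fitted by limma 3.58.1 under R 4.3.3, with lmFit and eBayes (two-sided, Benjamini-Hochberg). The fit was also run on 10 simulated sets with 200 changed probe sets among 13575. Their noise was independent and normal, with variances drawn from limma's own fitted model. Differences of 4-fold were called at 98.3% and those of 2-fold at 53.4% of changed probe sets, and 4.75% of calls were false. These rates check the code under that model and are not error rates of the real arrays.

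The 10 genes and the lists were chosen with earlier results of these data known. Named were all members, genes of each list that passed or had the 3 smallest p, and the 5 nearest profiles. Acta2, Adgre1, C1qb, Cdh5, Cma1, Cx3cr1, Itgam, Kdr, Krt8, Lcn2, Msr1, Reck, Wt1 and the synapsins were added after their values were seen. A gene's brightest probe set stands for it in lists. Labels tie pools to no shared day or litter; correlations of deviations of same-numbered pools were 0.107 and −0.0048. Alternatives covered pseudocount, filter, normalization, variance model, replicate block, threshold and each array left out.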

Additional observations from a re-analysis of the deposited data

How the results depend on the processing

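The count of probe sets past the threshold, 11 over the whole array, was 2 with a pseudocount of 1, 37 with 64, 1 with no filter, 22 with a filter at the 60th percentile, 19 with median centring, 39 with eBayes trend and robust, 48 with array weights and 48 at a threshold of 0.1. With 1 array left out it ran from 0 (without db/+ replicate 2) to 28 (without db/db replicate 1), and it was 1 without db/+ replicate 3. Among MMP and TIMP probe sets the count was 0, and it was 1, the brighter one of Timp4, with a pseudocount of 64, a filter at the 60th percentile, eBayes trend and robust, array weights, and a threshold of 0.1. It was 0 with each array left out. The number of these probe sets whose arrays did not overlap was 3 on the lower side and 0 on the higher side, and it ran between 4 and 7 on the lower side, and between 0 and 4 on the higher side, with 1 array left out, where fewer arrays make separation easier by construction.

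The replicate number as a block gave 20 calls over all probe sets and 0 among MMPs and TIMPs, with the brighter Timp4 probe set at an adjusted p of 0.11 and Mmp3 at a log2 change of −0.785 (0.277). The shared numbers come from the titles only, and this fit gives db/db replicate 1 no weight. It changed no member's call.

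Of the 20 member probe sets, 14 kept their sign in every setting run, and no reversed value passed the threshold. With 1 array left out, the brighter Mmp14 probe set ran from −0.0291 to 0.487 and a probe set of Mmp23 from −0.212 to 0.0258 (0.0203 without db/+ replicate 3). The Timp3 probe sets ran from −0.146 to 0.51, from −0.297 to 0.38 and from −0.334 to 0.652, each negative without db/+ replicate 3. One Timp2 probe set was −0.0074 with quantile normalization, −0.0057 with median centring and −0.0462 with the replicate block or without db/db replicate 1. With the block or without that array a Timp3 probe set was −0.0212. The cause was not tested. Signals under the filter's level carry no order for Mmp12.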

Other observations

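On mouse chromosome 9 RefSeq's annotation of GRCm38.p6 lists 10 MMP genes, in the order Mmp13, Mmp12, Mmp1b, Mmp3, Mmp1a, Mmp10, Mmp8, Mmp27, Mmp20 and Mmp7. The array's annotation names 9 of them, and only Mmp3 had a mean log2 value above the filter. The stromelysin-2 gene Mmp10, close to Mmp3 in that order, read 16.6, 59.7 and 18.1 in db/db, against 35.6 and 14.4 in db/+, and the genotypes overlapped.

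By the same annotation 3 of the 4 TIMP genes lie within a synapsin gene, a family of neuronal vesicle proteins: Timp1 within Syn1, Timp3 within Syn3 and Timp4 within Syn2. The brighter Syn2 probe set read 36.5, 35.5 and 38.6 in db/db, against 43.0 and 33.9 in db/+, so it overlapped where Timp4 did not. It was under the filter. Syn1 read 102, 48.0 and 96.8 in db/db, against 49.8 and 64 in db/+, a log2 change of 0.39 (limma adjusted p = 0.79). Syn3 was under the filter as well, at 53.7 or below in db/db and at 24.6 and 45.3 in db/+. These genes were chosen for their position after the TIMP values were seen.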
